A study of Mus musculus with 2 samples.

Results

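The genes described here are 10 genes of plasma lipoproteins, Apoa1, Apoa2, Apoa4, Apoa5, Apob, Apoc1, Apoc3, Apoe, Apoh and Mttp, chosen by their symbols from the 32285 genes that the tables of both libraries list. All 10 were found in both. The data were single-cell RNA-Seq of mouse liver on the 10x Genomics platform with 3′ chemistry, in which each droplet tags its RNA with a barcode and each captured molecule with its own identifier (UMI). The 2 libraries came from wildtype littermates (WT) and from miR-33 HKO mice (HKO), which carry floxed miR-33 alleles and an Albumin-Cre transgene, labelled AlbCRE. The Albumin promoter drives Cre in hepatocytes, and its activity in cholangiocytes is not settled in the sources used here. All mice were male and ate a diet low in choline and rich in fat (CD-HFD) for 6 months from 8 weeks of age. Each library was a pool of 3 livers in which hepatocytes and sorted live non-parenchymal cells were mixed in equal numbers. With 1 library per genotype there is no spread between animals, so no test was possible. The 95% intervals below are exact and cover counting error only, and a difference outside them is a difference between these libraries.

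The liver packs triglyceride and cholesterol ester into very low density lipoprotein (VLDL). Apob is the large structural protein of the particle, and Mttp, the microsomal triglyceride transfer protein, loads lipid onto it in the endoplasmic reticulum. Smaller apolipoproteins move between particles in plasma. Apoe serves in the uptake of particles by cells, Apoc3 and Apoc1 slow the clearance of triglyceride-rich particles, Apoa5 promotes their lipolysis, Apoa1 and Apoa2 are the main proteins of high density lipoprotein, and Apoa4 is an exchangeable protein of both kinds of particle. Apoh is a phospholipid-binding plasma glycoprotein. Hepatocytes make all of them, and macrophages are known to make Apoe as well.

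The genes lie in few places of the genome (GRCm38, GENCODE annotation). Apoa1 (chr9:46228580-46230466, plus strand), Apoc3 (chr9:46232933-46235636, minus strand), Apoa4 (chr9:46240696-46243459, plus strand) and Apoa5 (chr9:46268633-46271919, plus strand) form a cluster of 4 genes over 43340 bases. Apoc1 (chr7:19689481-19692660) and Apoe (chr7:19696109-19699188) share the minus strand 3448 bases apart. Apoa2 (chr1:171225054-171226379), Apob (chr12:7977648-8016835), Mttp (chr3:138089854-138144968) and Apoh (chr11:108343354-108414396) lie on their own. The annotated transcript with the longest coding sequence is 518 bases for Apoa2, 532 for Apoc1 and 709 for Apoc3, and 13934 bases for Apob.

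The HKO mice lack miR-33 in hepatocytes, a microRNA encoded within Srebf2 (chr15:82147181-82205379, plus strand). Its RefSeq mature sequence (GRCm38.p6, chr15:82198127-82198147, plus strand) is shown because the seed, bases 2 to 8 and given in capitals, decides which transcripts can pair with it.
mmu-miR-33-5p: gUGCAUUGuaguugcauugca
Seed matches were searched on the sense strand of every annotated 3′ untranslated region as CAATGCAA (match to bases 2 to 8 followed by A), CAATGCA (the same without the A) and AATGCAA (bases 2 to 7 followed by A), which overlap each other. None of the 10 genes held one in regions of 64 bases (Apoa1) to 1201 bases (Mttp), where 6.20% of the 11294 genes with regions no longer than 1201 bases and 17.6% of all 21153 genes held at least 1. The known target Abca1, the cholesterol exporter that lipidates Apoa1, held matches side by side. A CAATGCA match in the window chr4:53033786-53033814 overlaps the first of those shown and is not marked. The CAATGCAA matches are shown in capitals (GRCm38, minus strand).
Abca1, chr4:53033790-53033819: ctgacactattCAATGCAAtgcacttcaat
Abca1, chr4:53033775-53033804: gcaatgcacttCAATGCAAcgagaacacaa
A match is a description of letters and not a site of binding. Of related genes, 5 of 29 VLDL assembly genes (Lpgat1, Sar1a, Smlr1, Soat2 and Sort1) and 2 of 27 receptor and remodelling genes (Abca1 and Abcg1) held one. The microRNA itself is not among the genes listed in the tables. Its host Srebf2 stood at 24.7 CPM (counts per 1000000 UMIs, interval 23.3-26.2) in hepatocyte-like barcodes of WT and 19.4 CPM (17.7-21.2) in HKO, which does not measure the microRNA or its deletion.

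The libraries differed in depth. WT held 30078 barcodes with a median of 2658 UMIs, and HKO held 20000 with a median of 1130 and none under 770 UMIs. Hepatocyte-like barcodes were those of clusters with no non-hepatocyte markers and at least 2 times the commonest depth of the library, 5128 UMIs in WT and 1576 UMIs in HKO. They numbered 1826 in WT (median 20585 UMIs, 12.7% of UMIs mitochondrial) and 3654 in HKO (median 3973.5 UMIs, 14.3%). Their summed hepatocyte markers stood at 70901 CPM in WT and 55522 CPM in HKO, and the summed macrophage markers at 24.2 CPM in both. Barcodes of the same clusters under that depth are called free RNA depth here and numbered 19939 in WT and 9948 in HKO. Cells of WT and HKO were therefore compared at unequal depth, and this was examined below by thinning and within classes of depth.

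In hepatocyte-like barcodes the 10 genes together took 7.79% of all UMIs in WT and 6.92% in HKO. At 1000 UMIs per barcode the shares were 7.08% and 7.18%, so that the order of the libraries depends on the weight of deep barcodes. None of the 10 differed by 1.5-fold between the genotypes over all hepatocyte-like barcodes. Of 7076 genes with a mean of at least 10 CPM, 2.32% were at least 1.5-fold higher in HKO and 4.35% at least 1.5-fold lower, and at 2-fold the shares were 0.353% and 0.919%. The median log2 ratio of HKO to WT was -0.21 over the 10 genes and -0.02 over all genes, with 2 of the 10 higher and 8 lower. The WT sums include a cluster of 264 barcodes in WT and 8 in HKO, described below. Its 255 hepatocyte-like barcodes held 402055 of the 1076297 Apoa2 UMIs and 268392 of the 863106 Apoe UMIs of this class in WT. Shares and ratios without that cluster were not computed, so the order of the libraries and the count of 8 may depend on it.

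Apoe had the lowest ratio. It stood at 18272 CPM in WT against 13362 CPM in HKO. The ratio of HKO to WT was 0.731 (0.728-0.734). It stayed under 1 in all 10 alternative settings, which included other depth minima, thinning, kept doublets and scaling to Alb, and ranged from 0.706 to 0.965. It was 0.695 in barcodes of 5000 to 10000 UMIs, 0.789 in those of 10000 to 20000 and 0.742 in those of at least 20000. It was also under 1 in each of the 5 clusters with at least 50 hepatocyte-like barcodes of both libraries, from 0.530 to 0.868. Apoe was thus lower in HKO wherever it was compared in hepatocyte-like barcodes, by an amount that varied with the cluster. In barcodes of free RNA depth the ratio was 0.930 (0.924-0.935).

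Apoa4 was the gene furthest on the other side. It stood at 858 CPM in WT against 1065 CPM in HKO, with a ratio of 1.24 (1.22-1.26). The ratio was above 1 in all 10 alternative settings, at 1.22 to 1.64, and in each class of depth, at 1.28, 1.51 and 1.27 from shallow to deep. Within clusters it was above 1 in 3 of 5, with 1.54 (1.51-1.57) in the cluster with most barcodes, where it was past 1.5-fold as were 1.32% of all genes, and 0.870 in the lowest, so that the direction depends on the kind of barcode. In free RNA depth it was 1.45 (1.41-1.48).

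Apoc1 stood at 16833 CPM in WT against 18405 CPM in HKO, with a ratio of 1.09 (1.089-1.10). It was above 1 in all 10 settings, at 1.05 to 1.44, but above 1 in only 2 of 5 clusters (0.710 to 1.25). By depth it was 0.934 in barcodes of 5000 to 10000 UMIs, 1.64 (1.63-1.66) in those of 10000 to 20000 and 1.18 (1.17-1.19) in those of at least 20000. The value of 1.64 is past 1.5-fold, as is that of Apoa4 in the same class of depth, in which 11.2% of all genes were at least 1.5-fold higher in HKO. Mitochondrial UMIs moved with these classes, at 13.3% in WT and 18.3% in HKO for 5000 to 10000 UMIs, 19.9% and 14.3% for 10000 to 20000, and 11.3% and 11.97% above. Their part in the ratios was not tested. Its neighbour Apoe, 3448 bases away, had the opposite ratio. In the cluster on chromosome 9, too, the genes differed from each other, with Apoa4 higher in HKO and Apoa1 at 0.857 (0.851-0.862), Apoc3 at 0.891 (0.886-0.897) and Apoa5 at 0.850 (0.837-0.863).

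The genes of particle assembly stood lower in HKO. Apob was at 2793 CPM in WT against 2426 CPM in HKO, with a ratio of 0.869 (0.860-0.877), and was under 1 in 5 of 5 clusters, from 0.653 to 0.926. Mttp was at 173 CPM in WT against 141 CPM in HKO, with a ratio of 0.813 (0.782-0.846), and in the clusters it ranged from 0.495 to 1.14. Apob did not differ beyond counting error between the deep barcodes, with 0.990 (0.972-1.007) at 20000 UMIs or more against 0.735 at 5000 to 10000 UMIs. Apoa2 was at 22785 CPM and 19788 CPM, 0.868 (0.866-0.871), and Apoh at 1503 CPM and 1235 CPM, 0.821 (0.810-0.832).

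Which ratios lie above 1 depends on what the counts are scaled to. Alb, the plasma albumin made by hepatocytes, took 3.64% of UMIs in WT and 2.76% in HKO. Scaling to Alb adds 0.40 to the log2 ratio of every gene, and the median of all genes then became 0.38, with 89.6% of them higher in HKO and 20.9% at least 1.5-fold higher. Of the 10 genes 9 were then higher, with a median log2 ratio of 0.19, still under that of all genes, and Apoa4 passed 1.5-fold at 1.64. Apoe stayed under 1 at 0.965. The place of the 10 genes among all genes is the same under both scalings. With barcodes weighted equally, Apoa2 (1.05) and Apoc3 (1.01) also moved above 1. In barcodes of 10000 to 20000 UMIs Apoa2 stood at 1.19 and Apoc3 at 1.30.

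**Figure D1:**
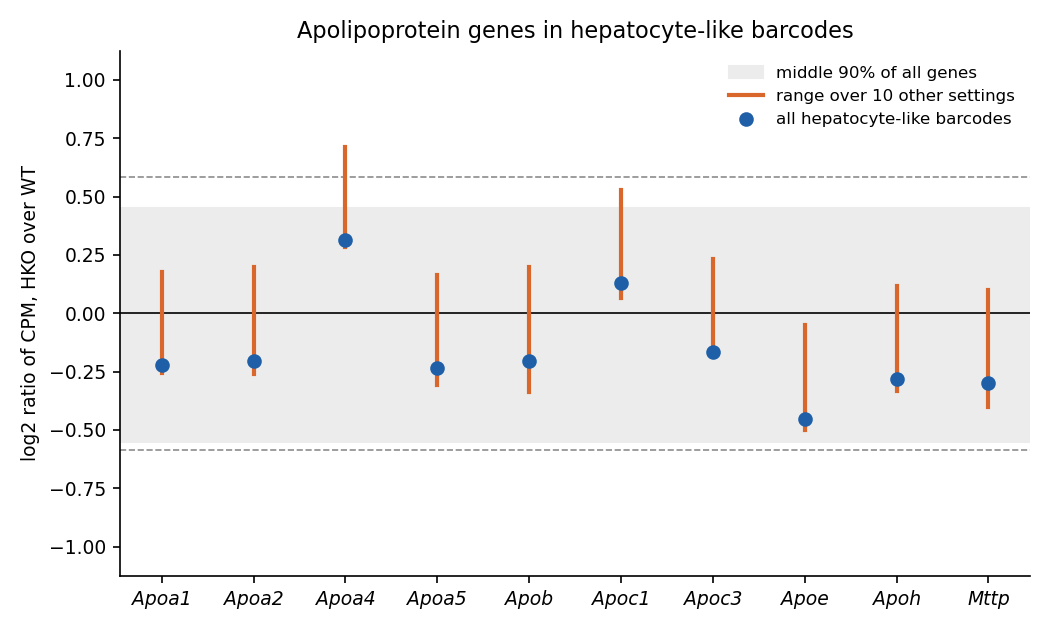
The y axis is the log2 ratio of CPM, HKO over WT, in hepatocyte-like barcodes, for each of the 10 genes on the x axis; points are the ratios of summed UMIs, vertical lines the range over 10 other settings, the grey band the middle 90% of 7076 genes, and dashed lines 1.5-fold. Apoe lies lowest at -0.45 and its line stays under 0, Apoa4 lies highest at 0.31, and the lines of 7 genes cross 0.

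The other genes of the pathway were read as lists, beside which 2.32% of all genes were at least 1.5-fold higher in HKO and 4.35% lower. Of 28 genes of VLDL assembly and secretion that passed 10 CPM, 6 were higher in HKO and 22 lower, at a median of -0.21 for the log2 ratio, and 4 passed 1.5-fold. These were Pdia3, a disulfide isomerase of the endoplasmic reticulum (327 to 146 CPM, 0.447), Surf4, a cargo receptor for secreted lipoproteins (0.655), Aadac, a lipid hydrolase (0.660), and Lpgat1, a lysophospholipid acyltransferase (1.51). Among 18 genes of receptors and plasma remodelling, 2 were higher and 16 lower, with a median of -0.54. Lower by at least 1.5-fold were 7 of them, and the 6 with the lowest ratios were Angptl8 (0.491) and Angptl4 (0.547), inhibitors of lipoprotein lipase, Scarb1, the receptor of high density lipoprotein (0.601), endothelial lipase Lipg (0.602), and the sterol exporter pair Abcg8 (0.638) and Abcg5 (0.639). Abca1 stood at 195 CPM in WT and 208 CPM in HKO, 1.07 (1.03-1.10).

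Among 22 regulators of these genes 10 were higher and 12 lower, and 2 passed 1.5-fold. Srebf1, the regulator of fatty acid synthesis, stood at 155 CPM in WT and 32.2 CPM in HKO (0.208), and the hepatocyte factor Onecut1 stood at 12.8 CPM in WT and 55.3 CPM in HKO (4.31). Of 14 other apolipoprotein genes, 8 were higher and 6 lower and none passed 1.5-fold, with a median of 0.17. The comparison closest in kind was with 30 other secreted plasma proteins, of which 3 were higher and 27 lower, with a median of -0.37. There Hp (0.598), Serpinc1 (0.604) and F2 (0.622) passed 1.5-fold. Of the genes named past 1.5-fold, Lpgat1 (1.51), Srebf1 (0.208) and Serpinc1 (0.604) held a seed match of miR-33, as did Abca1 (1.07), so that the direction was not shared. The 10 genes thus lay between the genes at large and the other secreted proteins, with no test of that order.

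Within a library the 10 genes did not vary alike from barcode to barcode. In WT the middle 50% of hepatocyte-like barcodes spanned 5560 to 22557 CPM for Apoc1 (4.06-fold), 13051 to 21418 CPM for Apoe (1.64-fold) and 2073 to 3516 CPM for Apob (1.70-fold). To set depth equal, each barcode was thinned to 500 UMIs and the variance of its UMIs divided by the mean, which is about 1 where barcodes differ by counting alone. The value was 4.10 in WT and 4.56 in HKO for Apoc1, and 4.05 and 4.15 for Apoa2. It was 2.32 and 2.47 for Apoe, 2.08 and 2.05 for Apoc3, and 1.77 and 1.79 for Apoa1. Apob stood at 1.31 and 1.39, and Mttp, with few UMIs, at 1.02 and 1.07. This measure grows with the mean number of UMIs, which was 7.41 for Apoc1, 10.01 for Apoa2 and 0.391 for Apoa4 in WT, so that it does not rank genes of different abundance. Apoa4 stood at 1.25 in WT and 1.43 in HKO by this measure, yet its spread beyond counting, as an SD in percent of the mean, was 80.0% in WT and 92.7% in HKO, against 64.6% and 61.7% for Apoc1 and 39.0% and 45.7% for Apoe. The middle 50% of barcodes spanned 3.12-fold in WT and 4.09-fold in HKO for Apoa4, counting error included.

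**Figure D2:**
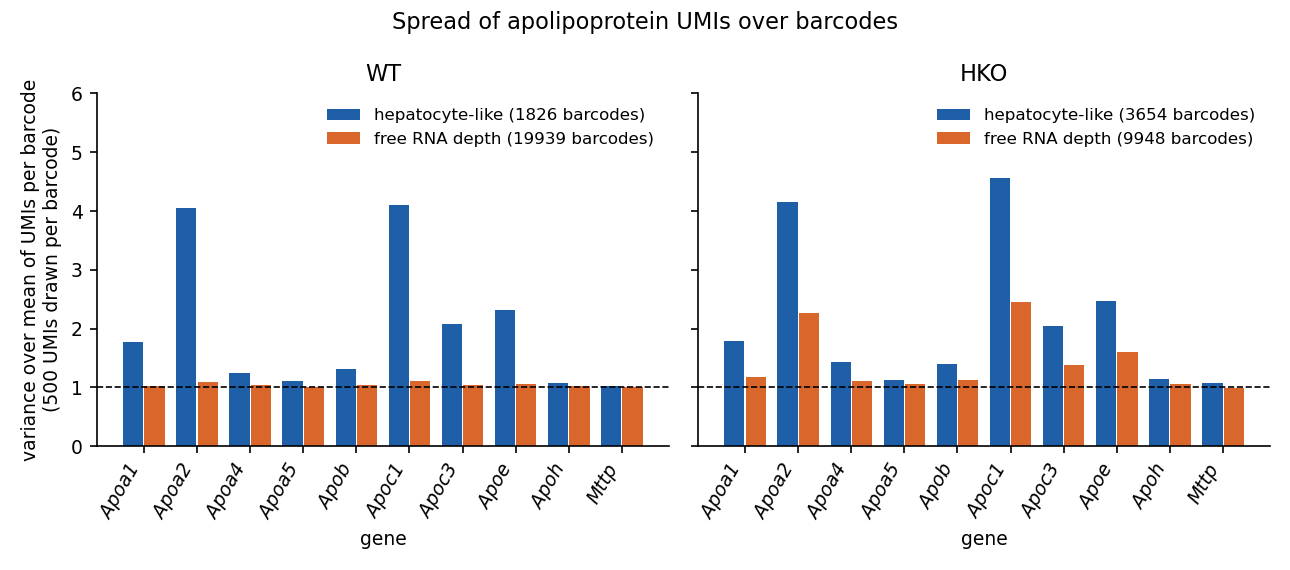
The y axis is the variance over the mean of UMIs per barcode after 500 UMIs were drawn from each, for the 10 genes on the x axis, in WT (left) and HKO (right); blue bars are hepatocyte-like barcodes, orange bars barcodes of free RNA depth, and the dashed line is 1. In WT the orange bars lie between 1.00 and 1.10, whereas in HKO those of Apoc1 (2.45) and Apoa2 (2.27) stand well above 1.

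Apoc1, Apoc3 and Apoa2 varied together. At 5000 UMIs per barcode, over 1826 barcodes of WT and 1576 of HKO, Pearson's r was 0.87 and 0.88 for Apoc1 with Apoc3, 0.81 and 0.83 for Apoa2 with Apoc3, and 0.79 and 0.81 for Apoa2 with Apoc1. Apoa1 with Apoe gave 0.61 and 0.70. Apob went the other way, with -0.35 and -0.22 against Apoc1 and -0.29 and -0.10 against Apoc3. These values describe barcodes of the same library and carry no test. The 3 genes that varied together have the shortest transcripts of the 10 and lie on 3 chromosomes, and Apob has the longest. The part of transcript length in the pattern was not tested.

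**Figure D3:**
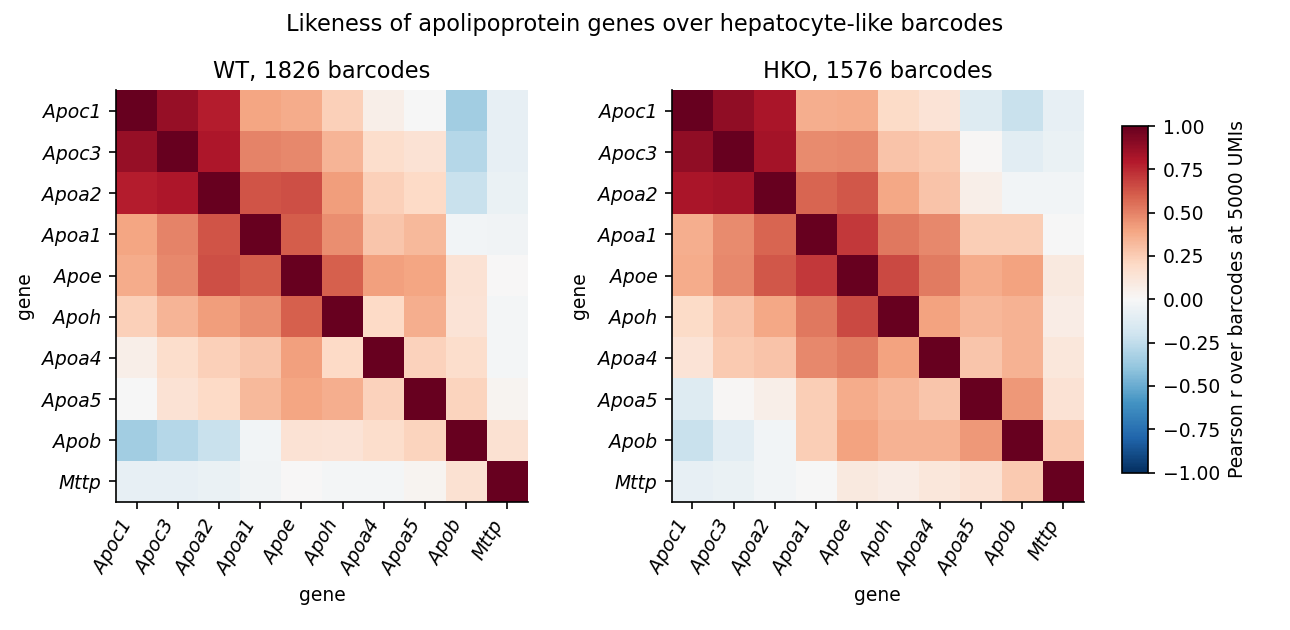
Each square gives Pearson's r between the UMIs of a pair of genes over hepatocyte-like barcodes thinned to 5000 UMIs, in WT (left, 1826 barcodes) and HKO (right, 1576 barcodes), coloured from -1 (blue) to 1 (red). Apoc1, Apoc3 and Apoa2 form the dark corner at 0.79 to 0.88, and Apob against Apoc1 is the bluest square at -0.35 in WT and -0.22 in HKO.

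Apoc1 and Apob also differed between clusters of hepatocyte-like barcodes, which were built without the 10 genes. In a cluster led by Gstp1, Mt1 and Gsta1, with 1.17% mitochondrial UMIs in WT, Apoc1 stood at 31380 CPM in WT and 24949 CPM in HKO, and Apob at 1453 and 949 CPM. In a cluster led by mitochondrial genes (27.7% and 32.8% of UMIs) Apoc1 stood at 5022 and 4046 CPM and Apob at 3708 and 3050 CPM. In one led by Gm20528, Gm26917 and Neat1, a nuclear RNA, Apoc1 stood at 3918 and 2783 CPM and Apob at 3083 and 2769 CPM. In another cluster led by mitochondrial genes (36.8% and 35.5% of UMIs) Apoc1 stood at 8257 and 10353 CPM and Apob at 5035 and 3959 CPM. Of the 5 clusters shared by the libraries, that led by Gstp1 had the highest Apoc1 and the lowest Apob in both genotypes, while among the other clusters given here the order of the genes was not simply opposite. In the cluster led by Gstp1 6 of the 10 genes were at least 1.5-fold lower in HKO, Apoa1 (0.537), Apob (0.653), Apoc3 (0.636), Apoe (0.530), Apoh (0.613) and Mttp (0.495), against 12.6% of all genes. In that led by Gm20528 3 were, Apoa2 (0.646), Apoc3 (0.573) and Apoe (0.600), against 7.42% of all genes. Mitochondrial share and nuclear RNA move with these clusters, and their part in the levels was not tested. A further cluster held 264 barcodes of WT and 8 of HKO, so that it may be a feature of that library. In its 255 hepatocyte-like barcodes of WT, with a median of 34380 UMIs, Apoa2 stood at 39960 CPM and Apoe at 26675 CPM.

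Hepatocytes differ along the axis of the lobule from the portal tract to the central vein. Hepatocyte-like barcodes of each library were ordered by 12 pericentral and 10 periportal marker genes, none of them among the 10, and divided into equal parts called periportal, middle and pericentral. Glul, the pericentral glutamine synthetase and part of the score, stood at 26.8 CPM in the periportal and 422 CPM in the pericentral part of WT. In HKO it stood at 19.2 and 1210 CPM. Cyp2f2, a periportal marker of the score, stood at 1156 and 531 CPM in WT and at 1075 and 233 CPM in HKO. The cut points were set within each library, so parts of the same name may not match in position between the libraries. The parts are ranges of a score and not cell types, and 21.5% of barcodes in WT and 17.4% in HKO lay within 0.1 standard deviations of the score of a cut point. In HKO the periportal part was also deeper, with a median of 7984.5 UMIs against 2843 in the middle and 3231 in the pericentral part, where the medians in WT lay between 19068.5 and 21479. The part of depth in the HKO gradients was examined by thinning.

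None of the 10 genes differed by 1.5-fold between the pericentral and periportal parts with the score and depth as given, and under other settings 3 did, Apoa2 in WT (1.67) and Apoa4 in HKO (0.598) with the share of marker UMIs as score, and Apoc3 in HKO (0.637) at 5000 UMIs or more. Of all genes, 4.96% were pericentral and 4.57% periportal by that fold in WT, and 8.15% and 3.58% in HKO, with the score and depth as given. Under the settings in which the 3 passed, 11.8% of all genes were pericentral in WT, and 4.0% (marker share) and 3.53% (5000 UMIs) were periportal in HKO. The steepest gradient in WT was that of Apoa2, at 17011 CPM periportal, 28587 CPM in the middle and 22627 CPM pericentral, a pericentral to periportal ratio of 1.33 (1.32-1.34), against 1.06 (1.057-1.07) in HKO. Mttp was higher pericentrally in both libraries, at 1.14 (1.08-1.20) in WT and 1.22 (1.13-1.31) in HKO. Apoa2 and Mttp kept that direction in both libraries under all 5 settings of the score, cut points and depth. By the ratio alone 4 of the 10 genes, Apoa1, Apoa4, Apoc1 and Apoe, lay above 1 in WT and under 1 in HKO, against 7.89% of all genes. This was with the score and depth as given, and of the 4 only Apoa4 kept both directions under all 5 settings.

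Apoc3 and Apoa5 were lower pericentrally. Apoc3 stood at 6954 CPM periportal and 6025 CPM pericentral in WT (0.866, 0.859-0.874), and at 7255 and 4984 CPM in HKO (0.687, 0.679-0.695). The ratio of Apoa5 was 0.839 (0.820-0.858) in WT and 0.815 (0.790-0.840) in HKO. Both kept the direction in HKO under all 5 settings and in WT under 4 of 5, with Apoc3 at 1.09 and Apoa5 at 1.06 when the score was the share of marker UMIs. Apob was nearly flat, at 0.979 (0.966-0.991) in WT and 0.966 (0.949-0.984) in HKO.

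Apoe was highest in the middle part, at 15778, 20985 and 17992 CPM from periportal to pericentral in WT and at 13196, 13998 and 13133 CPM in HKO. The ratio of HKO to WT was under 1 in each part, at 0.836 (0.831-0.842) periportal, 0.667 (0.662-0.672) in the middle and 0.730 (0.725-0.735) pericentral. Apoa4 stood at 755, 946 and 870 CPM in WT and at 1160, 1165 and 843 CPM in HKO, so that its ratio of HKO to WT was 1.54 (1.4999-1.576) periportal, 1.23 (1.20-1.27) in the middle and 0.969 (0.940-0.998) pericentral. The periportal value is past 1.5-fold, with a lower bound just under that line, and 2.73% of all genes were as far higher there. The higher level of Apoa4 in HKO was therefore measured in the periportal and middle parts. The parts were cut within each library and may not match in position between the libraries. Whether the gradients differ between genotypes could not be tested with 1 library each.

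**Figure D4:**
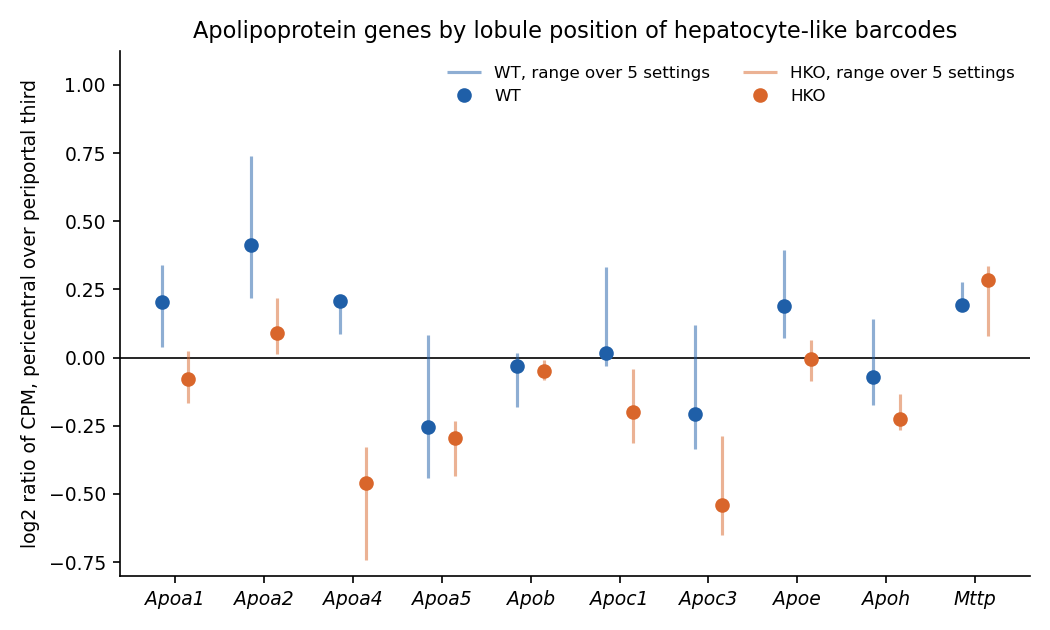
The y axis is the log2 ratio of CPM, pericentral over periportal part of the hepatocyte-like barcodes, for the 10 genes on the x axis; points are WT (blue) and HKO (orange), and lines the range over 5 settings, the one of the points included. Apoa2 lies highest in WT at 0.41, Mttp lies above 0 in both, and Apoa4 lies at 0.21 in WT and -0.46 in HKO.

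RNA of the 10 genes was abundant outside hepatocyte-like barcodes. In WT the barcodes of free RNA depth held 45.3% (Apoe) to 55.8% (Apob) of all UMIs of each gene among the barcodes kept, and in HKO 23.5% (Apoc1) to 32.9% (Apob). These shares cannot be compared between the libraries, since the table of HKO holds exactly 20000 barcodes with none under 770 UMIs and that of WT starts at 500. The commonest depth of HKO, 788 UMIs, which sets the bound of this class, lies close to that lowest depth. The 10 genes took 7.54% of their UMIs in WT and 7.23% in HKO. Their ratio to hepatocyte-like barcodes lay between 0.831 (Apoe) and 1.28 (Apob) in WT and between 0.877 (Apoc1) and 1.45 (Apob) in HKO, and none passed 1.5-fold. Of all genes, 4.97% were at least 1.5-fold higher in free RNA depth and 10.3% lower in WT, and 1.29% and 5.31% in HKO. Mitochondrial genes were lower there, with a median log2 ratio of -1.67 in WT and -0.23 in HKO over 13 genes.

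Apob was the highest of the 10 in this ratio in both libraries, with 3569 CPM in free RNA depth and 2793 CPM in hepatocyte-like barcodes of WT, and 3516 and 2426 CPM in HKO. Apoa5 had the next highest ratio, 1.191 (1.178-1.205) in WT and 1.45 (1.42-1.48) in HKO, where it did not differ from that of Apob (1.43-1.47) beyond counting error. Barcodes of free RNA depth in WT had a spread near that of counting alone, with a variance over the mean of 1.00 to 1.10, and r of 0.05 for Apoa2 with Apoc1 at 500 UMIs against 0.60 in hepatocyte-like barcodes. In HKO the same pair gave 0.46 in free RNA depth and 0.65 in hepatocyte-like barcodes. In HKO, whose table starts at 770 UMIs, the spread in free RNA depth thus lay between that of counting alone and that of hepatocyte-like barcodes, which goes in part against the label.

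Lymphocytes, which are not known to make apolipoproteins, showed how much of this RNA enters other cells. In 162 T and NK-like barcodes of WT Apoe stood at 7194 CPM and Apoc1 at 7429 CPM, and in 561 of HKO at 3635 and 4091 CPM. The counts expected from hepatocyte RNA were taken from the profile of hepatocyte-like barcodes of the same library, scaled by the UMIs of Alb in the class. Observed Apoe UMIs were 0.892 (0.872-0.913) times those expected in WT and 0.906 (0.883-0.931) times in HKO. In B and plasma-like barcodes they were 0.861 and 0.897 times, and in erythroid-like barcodes 0.903 and 0.896 times. Apoe in these classes was at or under the background.

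Macrophage-like barcodes were the exception for Apoe. They numbered 32 in WT and 144 in HKO and were led by Ighg1, Mmp12 and Lpl, with the fixed macrophage markers Marco, Cd5l, Gpnmb, C1qa, Vsig4 and Clec4f among the first 10 genes and summed macrophage markers of 17355 and 16944 CPM. They held 8782 Apoe UMIs in WT and 22447 in HKO, 15613 and 15400 CPM. This was 4.74 (4.64-4.84) times the count expected from hepatocyte RNA in WT and 11.9 (11.8-12.1) times in HKO. The ratios differ mainly in their denominator, since Alb UMIs in the class were 3696 of 562477 in WT and 3886 of 1457606 in HKO. After subtraction of the expected counts 12318 CPM remained in WT and 14110 CPM in HKO, levels of the order of those in hepatocyte-like barcodes. Per barcode Apoe ranged from 2530 to 35436 CPM in WT, with a median of 13219, and from 1844 to 50421 CPM in HKO, with a median of 13679. The medians were close and the ranges overlapped, with the highest barcodes of HKO above those of WT. Macrophage-like barcodes held 0.513% of the Apoe UMIs of WT and 4.14% of those of HKO. The class held 0.537% of the UMIs of all genes among kept barcodes in WT and 3.41% in HKO. These Apoe shares therefore cannot be compared between the libraries.

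Apoc1 showed a smaller excess in macrophage-like barcodes, at 1.29 (1.23-1.34) times the expected count in WT and 1.26 (1.22-1.30) times in HKO. By the profile of hepatocyte-like barcodes it was not alone in this, since Apoa5 stood at 1.35 (1.15-1.58) and 1.30 (1.12-1.51) times there and Apoa1 at 1.14 in both. Apob stood at 1.12 (0.999-1.25) and 1.29 (1.17-1.41) times, but Apob was also at 1.32 and 1.48 times in T and NK-like barcodes. With the profile of free RNA depth in place of that of hepatocyte-like barcodes, Apoe in macrophage-like barcodes stood at 5.44 and 12.4 times the expected count. Apoc1 then stood at 1.21 (1.16-1.26) and 1.58 (1.52-1.63) times. By that profile Apoa5 stood at 1.08 and 0.991 times, Apoa1 at 1.02 and 1.03 and Apob at 0.836 and 0.974. Unlike Apoc1, none of these was then above 1 beyond counting error in either library. In neutrophil-like barcodes of HKO, 35 in number, Apoc1 stood at 1.43 (1.35-1.52) times by the profile of hepatocyte-like barcodes and 1.79 (1.68-1.91) times by that of free RNA depth, and 1 barcode held 27.0% of its 996 UMIs there. By the first profile most of the 10 genes were above the count scaled to Alb in that class. Apoh stood at 1.65, Apoa5 at 1.56, Apoa2 at 1.34, Apob at 1.32, Apoa1 at 1.28, Apoe at 1.25 and Apoc3 at 1.16. Mttp, with few UMIs, stood at 1.51 (0.650-2.97) and Apoa4 at 0.895 (0.627-1.24). The plasma protein gene Ttr stood at 1.27. By the profile of free RNA depth Apoe was at least 1.5-fold above the expected count in 8 of 19 combinations of class and library, Apoc1 in 2, Mttp, with few UMIs, in 3, and the other 7 genes in none. Of all genes at 10 CPM or more in free RNA depth, which include those that the other cell types make themselves, 67.4% of the values over these combinations were as far above, and 7.57% as far under. Over the same combinations, 2.54% of the 551 values of 29 other secreted plasma proteins were as far above the expected count and 2.72% as far under. Apoa5 and Mttp were at least 1.5-fold under it in 3 combinations each, and Apoa1, Apoa4 and Apob in 1 each.

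Smaller excesses of Apoe were seen in other classes. A cluster with endothelial, macrophage and stellate markers together, 22 barcodes in WT and 83 in HKO, stood at 2.36 (2.27-2.44) and 7.23 (7.07-7.40) times the count expected from hepatocyte-like barcodes. Cholangiocyte-like barcodes, 12 and 27 in number, stood at 1.14 (1.09-1.18) and 2.14 (2.04-2.25) times. In WT 1 of the 12 held 37.5% of the Apoe UMIs and 70.8% of those of Apoc1, and without it Apoe stood at 1.47 times. Monocyte and dendritic-like barcodes stood at 1.35 and 1.54 times (1.18 and 1.28 without the highest barcode of each library) and endothelial-like barcodes at 1.11 and 1.46 times. Stellate-like barcodes stood at 0.884 and 1.03 times (0.932 and 0.922 without the highest barcode). They held summed hepatocyte markers of 63073 and 41663 CPM, near those of hepatocyte-like barcodes, beside stellate markers of 3411 and 4029 CPM, and 1 barcode of WT held 39.9% of the Apoe UMIs. Between classes Apoe therefore ran from the background in lymphocytes to its highest excess in macrophage-like barcodes in both libraries. Where an excess is small, the part of doublets in it was not tested.

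**Figure D5:**
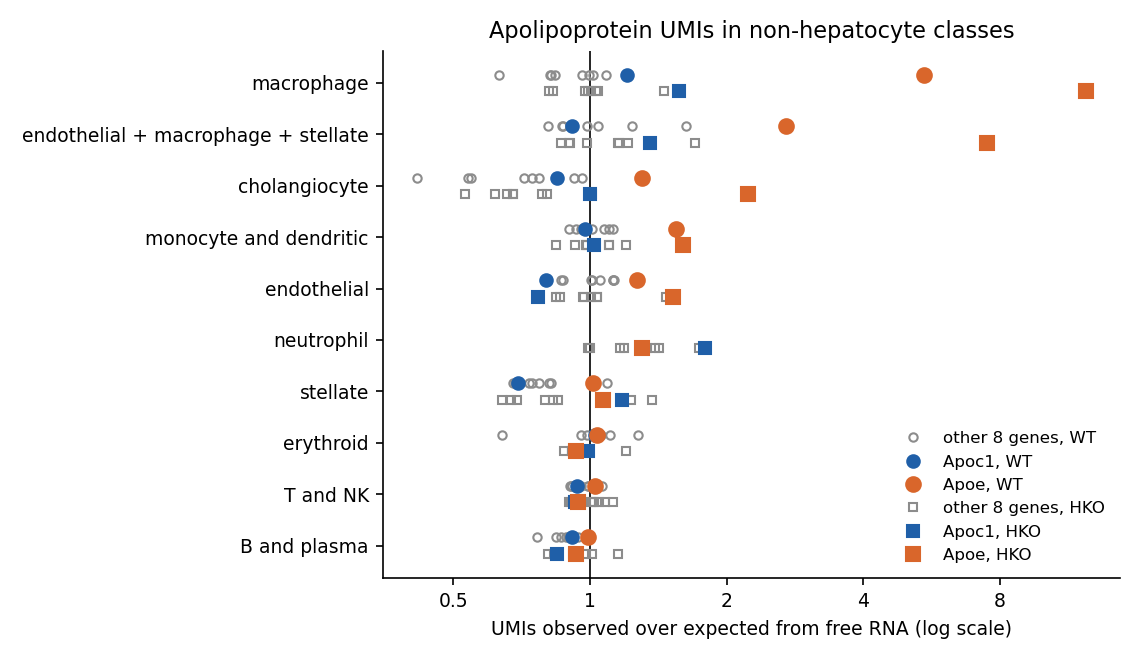
The x axis (log scale) is the UMIs observed over those expected from RNA of free RNA depth, scaled by Alb, for the classes on the y axis; circles are WT and squares HKO, with Apoe in orange, Apoc1 in blue and the other 8 genes open. Apoe in macrophage-like barcodes stands furthest right, at 5.44 in WT and 12.4 in HKO, and in T and NK-like barcodes it lies near 1 with the other genes.

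The genes whose levels were most like those of Apoe over 23 profiles of class and library were Prdx1, a peroxiredoxin (Pearson's r 0.90 on log2(CPM + 1)), Cox5a, a subunit of cytochrome c oxidase (0.87), Cd302, a lectin receptor (0.86), Tmbim6, a membrane protein of the endoplasmic reticulum (0.86), and Insig1, a sterol-regulated anchor of that membrane (0.85). They were taken from 3764 genes with at least 100 UMIs in macrophage-like barcodes. The profiles share the libraries, their depth and the free RNA, and the values carry no test.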

How the data were processed

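The 2 libraries were compared as deposited by the authors, as UMI counts per gene and barcode from Cell Ranger 7.1.0, a version read from the file headers. The submitters' processing notes also name mm10, R 3.0 and Seurat 3. This Cell Ranger version counts intronic reads by default, and whether that setting was kept is not given in the sources used here. Barcodes were kept at 500 UMIs or more, 300 genes or more and no more than 50% mitochondrial UMIs (29620 in WT, 18247 in HKO). The automatic threshold of Scrublet in scanpy 1.11.5 marked 0 doublets and so did not work. The 23.7% and 14.6% with the highest scores were left out instead, which left 22601 and 15583. Barcodes were clustered over 2000 variable genes that excluded the 10 genes and related lists, with 30 principal components, 15 neighbours and Leiden resolution 1, and named by fixed markers, of which a class needed 3. Unnamed barcodes numbered 379 in WT and 572 in HKO, and a class with under 10 barcodes in a library (neutrophil-like in WT) was not described. UMIs were summed per class and library, given as CPM (per 1000000), and compared as ratios with 95% exact intervals (Poisson for levels, conditional binomial for ratios). UMI counts were not divided by transcript length, so levels were not compared between genes. Overlapping genes were not resolved beyond the authors' counting. Barcodes shared by the libraries were not counted, as the WT barcode sequences were not analysed here. All 10 genes are described. From each related list at most 6 genes past 1.5-fold were named by size, and for Apoe the 5 most similar genes. The genes, lists and rules were chosen with earlier results of these data known. The ratio step was tested on simulated data. Alternatives are given in the closing section. Python 3.11.15, scipy 1.17.1 and pandas 2.3.3 were used.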

Additional observations from a re-analysis of the deposited data

Results flagged for a closer look

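The ratio of the pericentral to the periportal part lay above 1 in WT and under 1 in HKO for 4 of the 10 genes, and by the ratio alone for 7.89% of all 6842 genes compared. For 3 of the 4 the counting intervals left out 1 in both libraries, as for 0.789% of all genes, a share that cannot be set against the 3, since the intervals narrow with the number of UMIs and the 10 genes hold many. It was 1.15 in WT and 0.948 in HKO for Apoa1, 1.15 and 0.727 for Apoa4, and 1.01 and 0.872 for Apoc1. For Apoe it was 1.14 and 0.995, and the interval in HKO held 1 (0.987-1.003). Under 3 of the 5 settings Apoe in HKO lay above 1, up to 1.04. The difference between the libraries was not tested, since each genotype had 1 library. The directions of Apoa4 held under all 5 settings in both libraries (1.06 to 1.15 in WT, 0.598 to 0.797 in HKO). That of Apoa1 in HKO turned to 1.02 with at least 5000 UMIs in both libraries, and that of Apoc1 in WT to 0.979 with common cut points. In HKO the periportal part had a median of 7984.5 UMIs and the pericentral part 3231.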

How the results depend on the processing

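No paired analysis was possible because each genotype had 1 library, and leaving out a replicate was not run for the same reason. Of the values that answer a comparison, 39 held, 24 moved beyond counting error and 1 reversed under the alternatives, and of the other values 76 held, 133 moved and 23 reversed. The cause was not tested where none is named.

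The median log2 ratio of the 10 genes, -0.21, became 0.19 with scaling to Alb, and then 1 gene passed 1.5-fold. This scaling adds 0.40 to the log2 ratio of every gene, so that the median of all genes became 0.38 and the place of the 10 genes among all genes stayed as it was. It reversed Apoa1 (1.13), Apoa2 (1.15), Apoa5 (1.12), Apob (1.15), Apoc3 (1.18), Apoh (1.08) and Mttp (1.07). The median was -0.36 in barcodes of 5000 to 10000 UMIs, -0.63 in the cluster led by Gstp1 and -0.43 in that led by Gm20528, against -0.01 (5 higher, 5 lower), -0.11 and -0.26 in the other 3 clusters and -0.17 and -0.06 at 10000 to 20000 and at least 20000 UMIs, settings chosen after seeing the data. At 10000 to 20000 UMIs Apoa2 (1.19) and Apoc3 (1.30) reversed, and Apoc1 (1.64) and Apoa4 (1.51) passed 1.5-fold. In the cluster led by Gstp1 6 of the 10 genes were at least 1.5-fold lower in HKO, in that led by Gm20528 3 were, and in the cluster with most barcodes Apoa4 was 1.54 times as high. Thinning to 1000 UMIs reversed Apoa2 (1.05) and Apoc3 (1.02), and equal weights gave 1.05 and 1.01. The share of UMIs of the 10 genes, 7.79% in WT and 6.92% in HKO, was 7.77% and 6.93% with doublets kept, 7.66% and 7.01% with no depth minimum, 7.08% and 7.18% thinned, 7.101% and 7.16% with equal weights, 8.92% and 8.07% of nuclear UMIs, and 7.80% and 6.86% after free RNA was subtracted, and 6.76% in HKO at 5000 UMIs or more. With a mean of at least 1 CPM, 5.02% of genes were 1.5-fold higher in HKO and 5.77% lower, and with 1 UMI in each library 15.8% were higher and 12.2% lower.

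For zones, the share of marker UMIs as score reversed Apoa5 (1.06), Apoc3 (1.09) and Apoh (1.10) in WT and Apoe (1.03) in HKO. Common cut points gave Apob 1.01 and Apoc1 0.979 in WT and Apoe 1.00 in HKO, a minimum of 5000 UMIs gave Apoa1 1.02 in HKO, and thinning, added after seeing the data, gave Apoe 1.04 in HKO. The share of marker UMIs as score took Apoa2 in WT (1.67) past 1.5-fold, as 11.8% of all genes were, and Apoa4 in HKO (0.598), as 4.0% were, and 5000 UMIs or more took Apoc3 in HKO (0.637) past it, as 3.53% were. In free RNA within 25% of the commonest depth Apoe and Mttp of HKO both stood at 1.00. Apoe in macrophage-like barcodes stood at 5.44 (WT) and 12.4 (HKO) times the expected count by the profile of free RNA depth and at 4.53 and 11.6 without the highest barcode, and in T and NK-like barcodes of WT at 1.03 by that profile.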

Other observations

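Barcodes of clusters that could not be named, 379 in WT and 572 in HKO, also held the 10 genes. Hepatocyte markers were not used for naming. The clusters of 304, 238 and 44 barcodes among them had raised hepatocyte markers, and those of 208 and 157 did not. Summed hepatocyte markers of the unnamed barcodes stood at 61407 CPM in WT and 46860 CPM in HKO. Apoe stood there at 13748 CPM in WT and 11619 CPM in HKO, Apoc1 at 13136 and 13458 CPM, Apoa4 at 658 and 830 CPM, and Apob at 2781 and 2214 CPM.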
